A study of Mus musculus with 12 samples.

Results

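The genes described here are 32 mouse genes of fatty acid and triglyceride synthesis, listed by symbol for lipogenesis, desaturation, elongation and glycerolipid assembly. Each symbol matched 1 gene, so they are 32 of the 50600 genes counted in every library. All 32 passed the filter on low counts, as did 15219 genes in all. Elovl3 and Mogat1 passed with low counts in many libraries, Mogat1 with 1 to 59 and Elovl3 with 0 to 3792.

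Poly(A) RNA of liver was sequenced in 12 libraries from mice of the strain Rosa26-LSL-dCas9-p300. Such mice carry a nuclease-dead Cas9 joined to the acetyltransferase p300 at the Rosa26 locus, behind a stop cassette (LSL) that Cre recombinase removes. The source of Cre, the sex of the mice, the gRNA sequences, the feeding state and the hour of harvest are not given in the labels. The 3 groups have 4 libraries each. At about 8 weeks of age the PBS group received PBS, and each mouse of the control gRNA and Pdx1 gRNA groups received 1e+12 viral genomes of AAV.Cbh.gRNA, with a control gRNA or a gRNA to Pdx1, by the tail vein. Livers were taken 2 weeks later in every group. The labels do not state that libraries came from separate mice. The Xist and Ddx3y levels given next show that the PBS libraries came from more than 1 mouse, and the spread within the other groups may be technical.

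Libraries held 11824767 to 22008046 assigned counts. Pdx1, the targeted gene, had 0 counts in every PBS library, 0 to 2 in the control gRNA libraries and 26 to 256 in the Pdx1 gRNA libraries. PBS libraries 2 and 3 stood apart from the other 10. They had 97.3 and 84.8 CPM (counts scaled to a common library size) of the Y-linked Ddx3y, against at most 0.215 elsewhere, and 3.14 and 4.41 CPM of Xist, against 584 to 1443 elsewhere. Those 2 libraries thus have the male pattern and the rest the female pattern, so counts of called genes in the comparisons with PBS are given with and without them. Hepatocyte markers were abundant in all libraries, with Alb at 36070 to 91190 CPM. The defining adipocyte markers Adipoq, Plin1 and Retn stayed at or under 0.209 CPM and Lep had 0 in each library. Of the other 2 adipocyte markers, Cfd reached 11.9 CPM in PBS library 3 and Adig stayed at or under 0.512 CPM. The 6 markers summed to 0 to 12.7 CPM in PBS, 0.662 to 1.5 CPM in control gRNA and 0.762 to 1.36 CPM in Pdx1 gRNA libraries.

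As background, the liver makes fatty acids from acetyl-CoA that ATP citrate lyase and acetyl-CoA synthetase supply in the cytosol. Acetyl-CoA carboxylase makes malonyl-CoA, fatty acid synthase builds palmitate, and desaturases and elongases modify it before acyltransferases, lipins and diacylglycerol acyltransferases place the chains on glycerol. In hepatocytes the pathway is known to be induced after feeding by SREBP-1c, the product of Srebf1 that insulin induces, and by ChREBP, the product of Mlxipl that responds to glucose.

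RefSeq promoter windows, from 250 bases before to 50 after a start in build GRCm38.p6, were given for 27 of the 32 genes, and 7 of them had more than 1 window. Each window was searched on both strands for 4 short motifs. The CCAAT box (CCAAT), bound by NF-Y, was in a window of 19 of 27 genes (70.4%), against 41.1% of all 27025 genes with windows and 42.7% of the 11004 among them that were tested. The E-box CACGTG was in 4 (14.8%), against 8.09% of all genes and 11.4% of those tested. The GC box GGGCGG was in 15 (55.6%), against 38.2% of all genes and 65.3% of those tested. The sterol regulatory element TCACNCCAC, a form of the site that SREBP binds, was in 1 (3.7%, Mlxipl), against 1.44% of all genes and 1.51% of those tested. Of the 20 genes with windows that were called lower after control gRNA, 13 held a CCAAT box and 3 the E-box. The GC box was in 10 of these 20 and the sterol regulatory element in 1. These matches are descriptions of letters, not of binding.

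The 250 bases before the start are shown for Srebf1, Fasn, Thrsp and Mlxipl, since these are the regulators and the central synthase of the pathway and all 4 fell after control gRNA. They read 5′ to 3′ on the strand of the gene, with each CCAAT box or sterol regulatory element, on either strand, in capitals. Srebf1 had 3 windows, and the one shown lies at chr11:60210472-60210721, minus strand. Fasn lies at chr11:120824548-120824797, minus strand, Thrsp at chr7:97417551-97417800, minus strand, and the Mlxipl window with the sterol regulatory element at chr5:135106641-135106890, plus strand. Which start of Srebf1 or Mlxipl is used in these livers was not determined.

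Srebf1: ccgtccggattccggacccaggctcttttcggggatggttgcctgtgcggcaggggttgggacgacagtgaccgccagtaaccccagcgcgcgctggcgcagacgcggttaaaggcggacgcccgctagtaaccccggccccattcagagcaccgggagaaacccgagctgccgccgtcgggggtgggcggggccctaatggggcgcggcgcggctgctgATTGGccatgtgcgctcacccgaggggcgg
Fasn: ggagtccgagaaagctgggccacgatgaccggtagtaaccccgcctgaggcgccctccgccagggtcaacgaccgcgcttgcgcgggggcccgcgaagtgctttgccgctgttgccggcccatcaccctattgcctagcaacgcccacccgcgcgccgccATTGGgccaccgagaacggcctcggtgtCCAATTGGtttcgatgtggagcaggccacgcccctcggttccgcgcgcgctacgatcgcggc
Thrsp: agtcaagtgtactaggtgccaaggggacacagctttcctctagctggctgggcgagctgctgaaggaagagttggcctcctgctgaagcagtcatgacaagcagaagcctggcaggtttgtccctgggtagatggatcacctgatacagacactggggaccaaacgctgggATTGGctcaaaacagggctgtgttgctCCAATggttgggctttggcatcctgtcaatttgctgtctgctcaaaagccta
Mlxipl: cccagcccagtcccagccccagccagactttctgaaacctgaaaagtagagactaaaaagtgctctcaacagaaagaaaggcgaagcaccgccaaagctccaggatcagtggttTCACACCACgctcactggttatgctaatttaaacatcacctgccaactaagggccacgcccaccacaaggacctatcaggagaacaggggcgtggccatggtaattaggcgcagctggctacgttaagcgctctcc

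The Fasn stretch held 3 CCAAT boxes, from 90 to 86, 62 to 58 and 59 to 55 bases before the start, and the last 2, on opposite strands, overlapped. Thrsp held 2, from 79 to 75 and from 52 to 48 bases before its start. In Srebf1 the CCAAT box lay from 30 to 26 bases before the start shown. The element in Mlxipl lay from 136 to 128 bases before the start of that transcript.

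Most of the lipid synthesis genes fell in control gRNA livers against PBS livers, and 14 of the 32 fell in Pdx1 gRNA livers. After control gRNA, 24 of 32 fell and 0 rose by edgeR's quasi-likelihood test (adjusted p under 0.05 over all genes tested), with a median log2 fold change of -1.55 against -0.01 for all genes. Of all genes tested, 15.8% were called lower and 16.3% higher in the same comparison. The values of the 4 control gRNA libraries lay wholly under those of the 4 PBS libraries for 17 of the 32 genes, against 12.3% of all genes. After Pdx1 gRNA, 14 of 32 fell and 0 rose against PBS, with a median of -1.07 against -0.06 for all genes, where 10.4% of all genes were called lower and 11.7% higher. No member was called higher in either comparison under any alternative run, DESeq2 among them. The Pdx1 gRNA libraries lay wholly under PBS for 7 of the 32, against 8.74% of all genes. Both comparisons use the same 4 PBS libraries.

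Without PBS libraries 2 and 3 the members called lower were 17 after control gRNA (7.05% of 16170 genes lower, 6.91% higher) and 6 after Pdx1 gRNA (3.4% of genes lower). The medians were then -1.32 and -0.87. Of the 24 calls after control gRNA, 16 remained and Pnpla3 was added. The 8 lost were those of Mlxipl, Thrsp, Pklr, Fads2, Elovl3, Acsl5, Agpat2 and Dgat2. Acaca, Acacb, Elovl5, Lpin1, Lpin2 and Acss2 were the 6 that remained after Pdx1 gRNA. With library sizes in place of TMM scaling, the median over all genes moved to 0.34 and 0.22 in the 2 comparisons, and that of the members to -1.21 and -0.84. In the control gRNA comparison 50.9% of all calls were higher with TMM, 61.8% with upper-quartile factors and 80.6% with library sizes. In the Pdx1 gRNA comparison with PBS they were 53.0%, 58.7% and 81.3%.

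In bulk liver RNA, fewer cells of a type and less RNA per cell cannot be told apart. The summed level of 6 hepatocyte markers was 75510 to 115400 CPM in PBS, 49780 to 66460 in control gRNA and 48690 to 99120 in Pdx1 gRNA libraries. Of these markers Apoa1, Cps1, Hnf4a and Tat fell after control gRNA, with log2 fold changes from -1.23 to -0.81 for these 4, and none was called after Pdx1 gRNA in edgeR against PBS, with 2 at an unadjusted p under 0.05 and 1 called by DESeq2. The 4 log2 fold changes without PBS libraries 2 and 3 were -1.53 (Apoa1), -0.99 (Cps1), -0.63 (Hnf4a) and -0.99 (Tat), and none was called (edgeR adjusted p of 0.0522 to 0.173). Their part in the lower levels of the lipid genes was not tested. The 32 genes together took 0.917 to 2.69% of assigned counts in PBS libraries, 0.480 to 0.681% in control gRNA libraries and 0.493 to 1.05% in Pdx1 gRNA libraries.

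**Figure D1:**
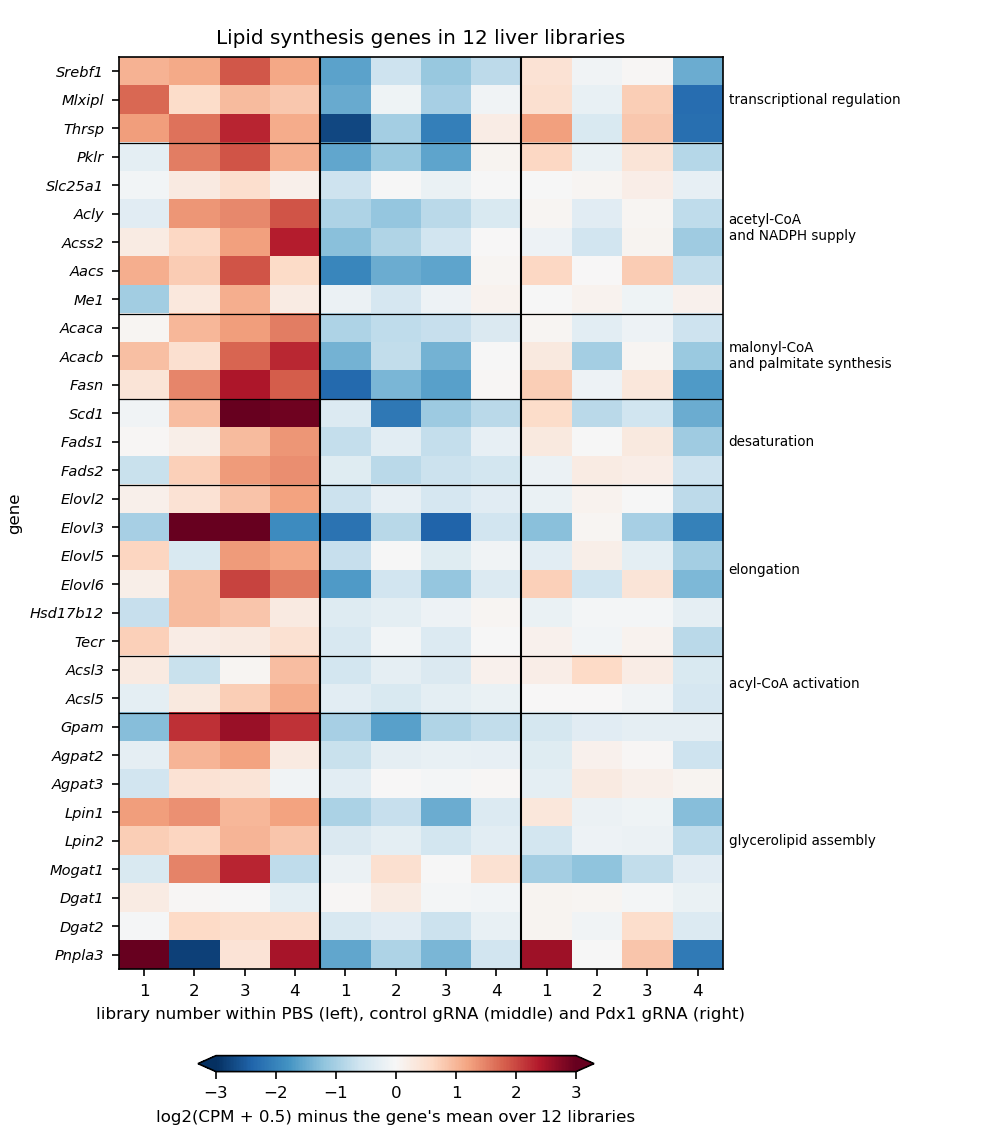
Level of each of the 32 genes (rows, grouped by role) in each of the 12 libraries (columns), as log2(CPM + 0.5) minus the mean of the gene over the libraries, on a colour scale that stops at -3 and 3. PBS libraries 3 and 4 are the highest of all 12 for 14 and 9 genes, and Pdx1 gRNA library 4 is the lowest of its group for 28.

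**Figure D2:**
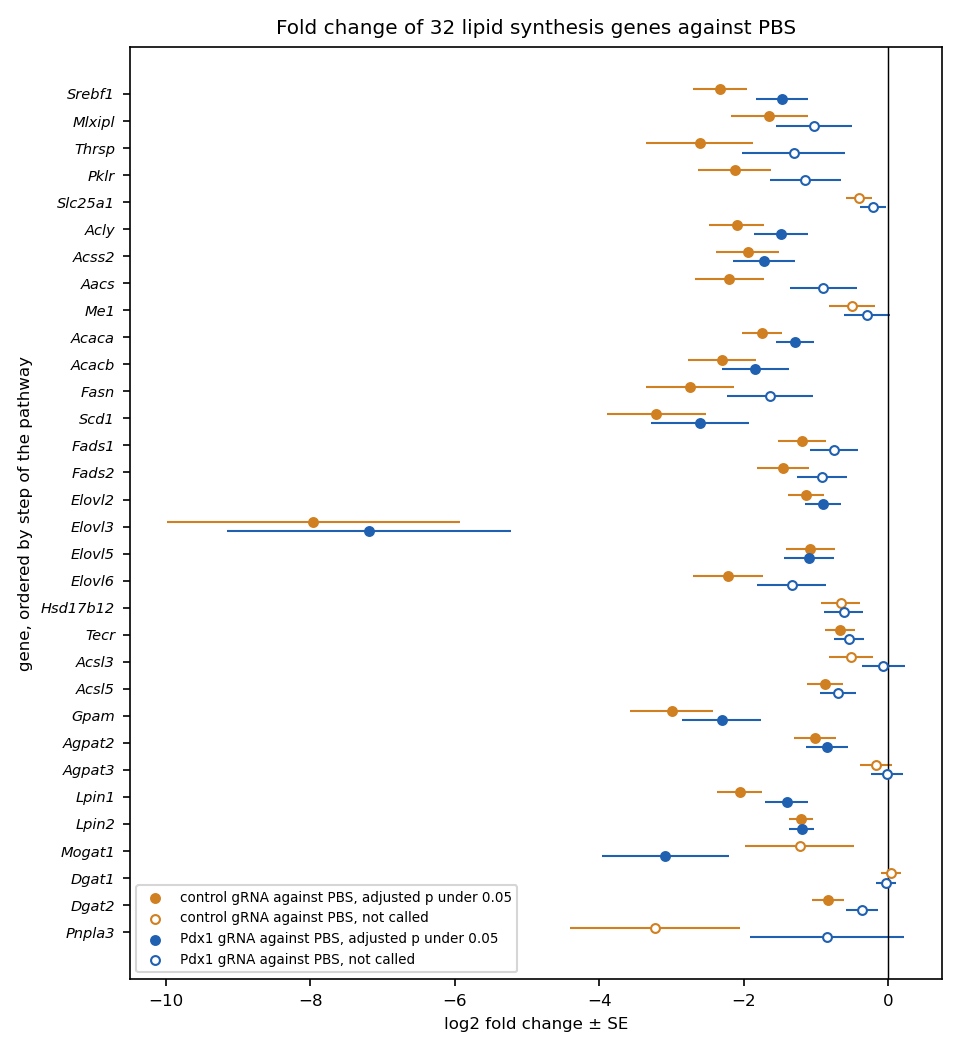
Log2 fold change (horizontal axis, bars are SE) of each gene after control gRNA (orange) and Pdx1 gRNA (blue) against PBS, with filled points for an adjusted p under 0.05. The filled points number 24 and 14, all left of 0, and Elovl3 is the farthest left in both.

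Among the regulators, Srebf1 (ENSMUSG00000020538.15, chromosome 11, 60199089 to 60222581, build GRCm38) encodes SREBP-1, the transcription factor that drives lipogenic genes. Its levels were 535, 569, 940.3 and 577 CPM in PBS libraries 1 to 4, 84.7, 168, 118 and 149.5 CPM in control gRNA and 351, 241, 263 and 92.2 CPM in Pdx1 gRNA libraries. All 8 virus libraries lay under all PBS libraries. Srebf1 fell by 2.33 ± 0.37 on the log2 scale after control gRNA (edgeR adjusted p = 0.000949) and by 1.47 ± 0.36 after Pdx1 gRNA (edgeR adjusted p = 0.0125). Without PBS libraries 2 and 3 the adjusted p values were 0.0115 and 0.0787 in edgeR.

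Mlxipl encodes ChREBP, the glucose-responsive regulator of the same genes. It had 1250, 558, 727 and 664 CPM in PBS, 132, 345, 189.7 and 353 CPM in control gRNA and 529, 324, 636 and 77.5 CPM in Pdx1 gRNA libraries. Control gRNA libraries lay under PBS, whereas Pdx1 gRNA library 3 lay above PBS library 2. The log2 fold change was -1.65 ± 0.53 after control gRNA (edgeR adjusted p = 0.0306) and -1.03 ± 0.52 after Pdx1 gRNA (edgeR adjusted p = 0.174, not called). The first call was lost without PBS library 1 or 3 or control gRNA library 1 or 3, at edgeR adjusted p values of 0.0526 to 0.0781, and without PBS libraries 2 and 3 (-1.93, edgeR adjusted p = 0.0633).

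Thrsp encodes a small nuclear and cytosolic protein, Spot 14, that is induced with the lipogenic enzymes. PBS libraries had 453, 589, 927 and 409 CPM, control gRNA libraries 28.0, 93.3, 45.5 and 223 CPM and Pdx1 gRNA libraries 445, 138, 333 and 39.6 CPM. The Pdx1 gRNA group was spread over an 11.25-fold range, and its library 1 lay inside the PBS range. Thrsp fell by 2.61 ± 0.74 after control gRNA (edgeR adjusted p = 0.0193) and its log2 fold change after Pdx1 gRNA was -1.31 ± 0.71 (edgeR adjusted p = 0.205). The control gRNA call was lost without PBS library 3 or control gRNA library 3 (edgeR adjusted p = 0.0508 and 0.0539) and without PBS libraries 2 and 3 (0.112).

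The supply of acetyl-CoA and NADPH gave 4 of 6 genes called after control gRNA and 2 of 6 after Pdx1 gRNA. Acly, ATP citrate lyase, had 196, 629.5, 681 and 927 CPM in PBS, 132, 111, 142 and 183 CPM in control gRNA and 259, 198, 259.9 and 147 CPM in Pdx1 gRNA libraries. PBS library 1 was far lower than the other PBS libraries and lay inside the Pdx1 gRNA range. Acly fell by 2.10 ± 0.38 (edgeR adjusted p = 0.00198) and by 1.49 ± 0.37 (0.0141) in the 2 comparisons with PBS.

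Acss2, the cytosolic acetyl-CoA synthetase that uses acetate, had 131, 169, 261 and 566 CPM in PBS, 46.3, 58.8, 74.8 and 111 CPM in control gRNA and 99.5, 73.7, 116 and 52.9 CPM in Pdx1 gRNA libraries. No virus library reached a PBS library. Acss2 fell by 1.95 ± 0.44 (edgeR adjusted p = 0.00577) and by 1.72 ± 0.43 (0.015 in edgeR), and remained called in both comparisons without PBS libraries 2 and 3. Aacs, which activates acetoacetate for lipid synthesis, had 132, 104, 230.4 and 91.5 CPM in PBS, 15.4, 21.8, 20.4 and 64.3 CPM in control gRNA and 95.4, 62.5, 104 and 37.2 CPM in Pdx1 gRNA libraries. Control gRNA library 4 was the highest of its group but still lay under PBS. Aacs fell by 2.20 ± 0.48 after control gRNA (edgeR adjusted p = 0.00526) and its log2 fold change after Pdx1 gRNA was -0.90 ± 0.46 (edgeR adjusted p = 0.183).

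Pklr, the liver pyruvate kinase, ranged from 109 to 495 CPM in PBS, from 44.6 to 142 in control gRNA and from 74.4 to 208 in Pdx1 gRNA libraries, and the groups overlapped. It fell by 2.13 ± 0.50 after control gRNA (edgeR adjusted p = 0.00762, and 0.0882 without PBS libraries 2 and 3) and stood at -1.15 ± 0.49 after Pdx1 gRNA (0.109 in edgeR, not called). Slc25a1, the mitochondrial citrate carrier, was at 216 to 323, 148 to 227 and 192 to 261 CPM in PBS, control gRNA and Pdx1 gRNA libraries. Me1, the malic enzyme that makes NADPH, was at 104 to 454, 151 to 230.0 and 196 to 233 CPM. Neither was called against PBS. After control gRNA both passed the threshold without PBS library 1, Slc25a1 at -0.50 and Me1 at -0.77 (edgeR adjusted p = 0.0329 and 0.0114), and DESeq2 called Slc25a1 (-0.44, adjusted p = 0.0422).

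The 3 genes that turn acetyl-CoA into palmitate fell after control gRNA without overlap. Acaca, acetyl-CoA carboxylase 1, had 92.2, 177, 213 and 256 CPM in PBS, 46.6, 52.1, 55.1 and 65.5 CPM in control gRNA and 92.6, 71.1, 80.4 and 57.3 CPM in Pdx1 gRNA libraries. Its Pdx1 gRNA library 1 just passed PBS library 1. Acaca fell by 1.75 ± 0.27 (edgeR adjusted p = 0.000804) and by 1.29 ± 0.26 (0.00549), and remained called without PBS libraries 2 and 3 (edgeR adjusted p = 0.0115 and 0.0432).

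Acacb, acetyl-CoA carboxylase 2, whose malonyl-CoA also restrains fatty acid oxidation at mitochondria, had 108, 80.3, 192 and 276 CPM in PBS. It had 21.2, 34.1, 21.1 and 57.1 CPM in control gRNA and 69.9, 27.9, 59.3 and 26.4 CPM in Pdx1 gRNA libraries, all of them under PBS. Acacb fell by 2.30 ± 0.47 (edgeR adjusted p = 0.00371) and by 1.84 ± 0.46 (edgeR adjusted p = 0.0149).

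Fasn (ENSMUSG00000025153.9, chromosome 11, 120805846 to 120824547), fatty acid synthase, had 541, 1137, 2206 and 1465 CPM in PBS, 81.2, 159, 133 and 421 CPM in control gRNA and 694, 373, 519 and 127 CPM in Pdx1 gRNA libraries. Control gRNA libraries lay under all PBS libraries, while Pdx1 gRNA library 1 lay above PBS library 1. Fasn fell by 2.75 ± 0.61 after control gRNA (edgeR adjusted p = 0.00560), which is 6.74-fold. After Pdx1 gRNA its log2 fold change of -1.64 ± 0.59 was not called (edgeR adjusted p = 0.0625). It passed the threshold there without PBS library 1 or without control gRNA library 4, which only enters the estimate of the spread, at -1.91 and -1.64 (edgeR adjusted p of 0.0323 to 0.0416).

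**Figure D3:**
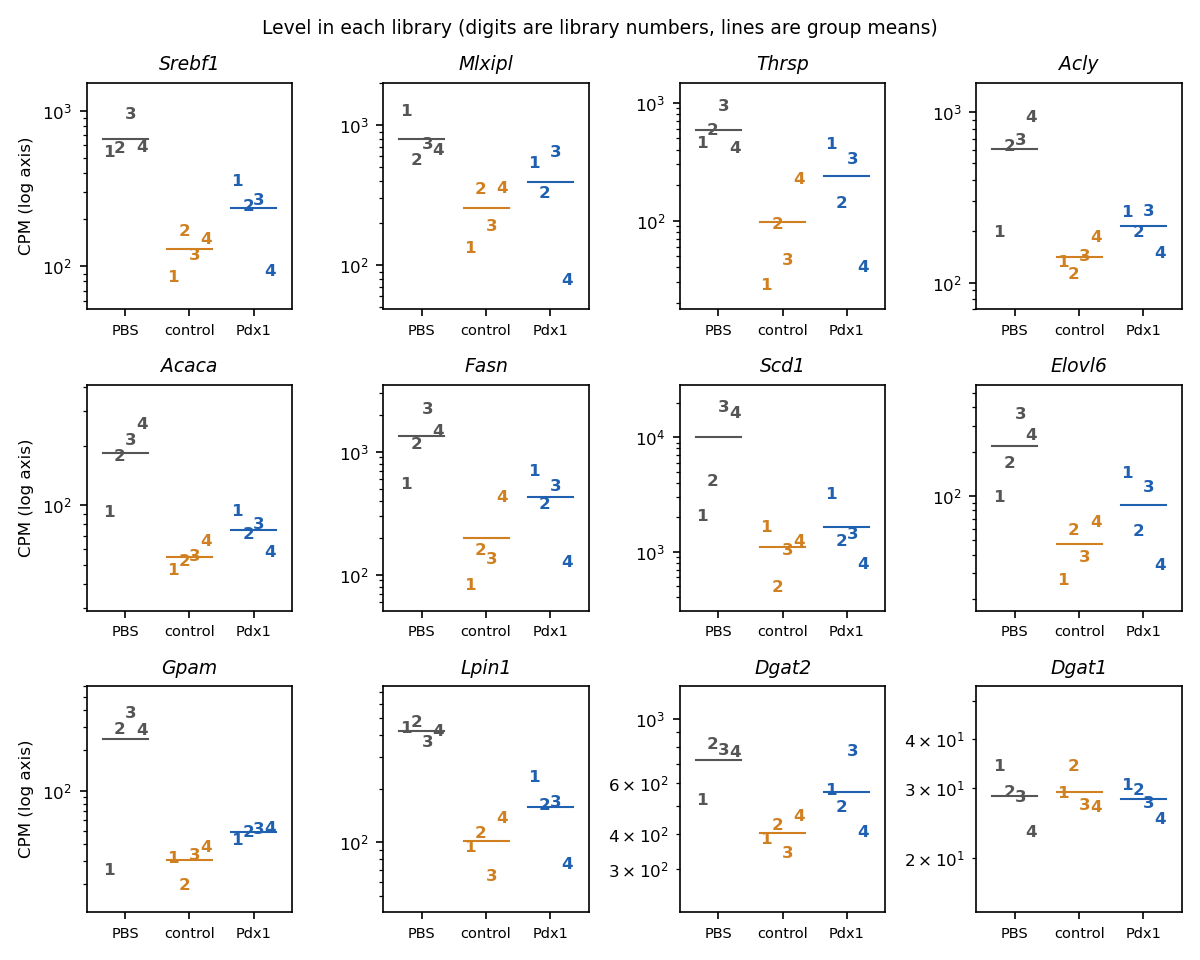
CPM (vertical log axis) of 12 of the genes in each library, with the library number as the symbol and a line at the group mean. For Srebf1 and Lpin1 all virus libraries lie under all PBS libraries, and Dgat1 is level across the groups. PBS library 1 is the lowest of its group for Srebf1, Acly, Acaca, Fasn, Scd1, Elovl6, Gpam and Dgat2.

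Desaturation genes were all called lower after control gRNA, and Scd1 alone of the 3 after Pdx1 gRNA, where the difference between the genes was not tested. Scd1 (ENSMUSG00000037071.2, chromosome 19, 44394451 to 44407709), the stearoyl-CoA desaturase that makes oleate, was the most abundant of the 32 genes per length, at 2093 ± 1697 CPM per kb (SD, n = 4) in PBS. The next were Fads2 at 272 ± 134 and Thrsp at 272 ± 107 CPM per kb, each a level. Scd1 had 2020, 4146, 18060 and 16250 CPM in PBS, 1622, 487, 1025 and 1237 CPM in control gRNA and 3184, 1229, 1428 and 777 CPM in Pdx1 gRNA libraries.

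The highest PBS library thus stood 8.94-fold above the lowest in Scd1. Control gRNA libraries still lay under all PBS libraries, and Pdx1 gRNA library 1 did not. Scd1 fell by 3.21 ± 0.69 (edgeR adjusted p = 0.00483) and by 2.61 ± 0.68 (0.0167), with 0.0219 and 0.0565 in edgeR without PBS libraries 2 and 3. Fads1 and Fads2, the delta-5 and delta-6 desaturases of polyunsaturated fatty acids, fell after control gRNA by 1.20 ± 0.33 and 1.46 ± 0.36 (edgeR adjusted p = 0.0165 and 0.00878). Their levels were 367 to 888 and 141 to 588 CPM in PBS, 218 to 301 and 127 to 174 in control gRNA and 169.5 to 437 and 145 to 264 in Pdx1 gRNA libraries. After Pdx1 gRNA their log2 fold changes of -0.75 ± 0.33 and -0.92 ± 0.35 were not called (edgeR adjusted p = 0.122 and 0.0779), but both passed without PBS library 1 (-0.92 and -1.21, edgeR adjusted p = 0.0457 and 0.00182). The Fads1 call after control gRNA was lost without PBS library 4 (-0.93, edgeR adjusted p = 0.0505), and that of Fads2 without PBS libraries 2 and 3 (-1.32, edgeR adjusted p = 0.0609).

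Of the elongation genes, Elovl6, which extends palmitate to stearate, had 98.3, 168, 358 and 257 CPM in PBS, 26.5, 58.6, 38.5 and 65.7 CPM in control gRNA and 143, 57.3, 115 and 33.8 CPM in Pdx1 gRNA libraries. Control gRNA libraries did not reach PBS, and Pdx1 gRNA libraries 1 and 3 did. Elovl6 fell by 2.22 ± 0.49 after control gRNA (edgeR adjusted p = 0.00544) and stood at -1.34 ± 0.48 after Pdx1 gRNA (0.0614 in edgeR, not called). That value passed without PBS library 1 or Pdx1 gRNA library 1, at -1.58 and -1.68 (edgeR adjusted p of 0.0274 to 0.0410).

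Elovl2, an elongase of long polyunsaturated chains, had 395, 477, 639.6 and 826 CPM in PBS, 227, 300.2, 249.6 and 282 CPM in control gRNA and 309, 383, 351 and 205 CPM in Pdx1 gRNA libraries. All virus libraries lay under all PBS libraries. Elovl2 fell by 1.14 ± 0.25 (edgeR adjusted p = 0.00539) and by 0.91 ± 0.25 (edgeR adjusted p = 0.0228). The second call was lost without PBS library 3 or 4 or Pdx1 gRNA library 1 or 4, at values of -0.90 to -0.69 (edgeR adjusted p of 0.0526 to 0.0658), and without PBS libraries 2 and 3.

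Elovl5, which elongates polyunsaturated chains, was at 210.3 to 707 CPM in PBS, 179 to 285 in control gRNA and 144 to 329 in Pdx1 gRNA libraries, with overlap. It fell by 1.08 ± 0.34 and by 1.10 ± 0.34 (edgeR adjusted p = 0.0305 and 0.0371). The first call was lost without any of PBS libraries 3 and 4 and control gRNA libraries 1 and 3, and the second without any of PBS libraries 3 and 4, control gRNA library 4 and Pdx1 gRNA libraries 1, 3 and 4. Over these the log2 fold change was -1.06 to -0.87 and -1.10 to -0.90, with edgeR adjusted p values up to 0.0929 and 0.108.

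Tecr and Hsd17b12 serve the other steps of the elongation cycle in the set. Tecr, the trans-2-enoyl-CoA reductase, was at 212 to 299 CPM in PBS, 129 to 179.5 in control gRNA and 104 to 199 in Pdx1 gRNA libraries, without overlap of either virus group with PBS. It fell by 0.67 ± 0.21 after control gRNA (edgeR adjusted p = 0.0294), a call lost without PBS library 4 or control gRNA library 1 or 3 (edgeR adjusted p of 0.0545 to 0.0716). After Pdx1 gRNA it stood at -0.55 ± 0.21 (edgeR adjusted p = 0.0840). Hsd17b12, the 3-ketoacyl-CoA reductase, was at 87.8 to 272, 107 to 146 and 116 to 137 CPM, and its -0.66 ± 0.27 and -0.62 ± 0.27 were not called (edgeR adjusted p = 0.0819 and 0.124). Without PBS library 1 both passed, at -0.90 and -0.86 (edgeR adjusted p = 0.00126 and 0.00232).

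Elovl3 (ENSMUSG00000038754.4, chromosome 19, 46131897 to 46135307), an elongase of saturated and monounsaturated very long chains that is known to be male-biased in mouse liver, differed in kind. It had 0.839, 360.4, 177 and 0.215 CPM in PBS, from 14, 3792, 1731 and 3 counts. Control gRNA libraries had 0.0746, 0.991, 0 and 1.28 CPM and Pdx1 gRNA libraries 0.621, 2.285, 0.831 and 0.152 CPM. Only the 2 PBS libraries with the male pattern stood above the rest. The log2 fold changes of -7.96 ± 2.03 and -7.19 ± 1.96 (edgeR adjusted p = 0.0133 and 0.0245) became 0.04 ± 1.35 and 0.80 ± 1.32 without these 2 libraries (edgeR adjusted p = 0.986 and 0.715). The second call was also lost without PBS library 2 or any Pdx1 gRNA library (-8.04 to -6.0, edgeR adjusted p of 0.0511 to 0.0748).

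Cyp4a12a, a male-biased cytochrome, had 825 and 748 CPM in the same 2 PBS libraries and at most 2.27 CPM in the other 10. Of 5 male-biased liver genes, 4 were called lower in each virus group against PBS, where 15.8% and 10.4% of all genes were lower. Without the 2 libraries 0 were, against 7.05% and 3.4% of all genes. Mogat1 shared the pattern in part, with 3.23 and 6.045 CPM in PBS libraries 2 and 3 and at most 1.36 CPM in the others. Of 5 female-biased liver genes, 1 was called lower after control gRNA and 0 after Pdx1 gRNA against PBS. Without PBS libraries 2 and 3 these counts were 2 and 0, with medians of -2.28 and -0.90.

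**Figure D4:**
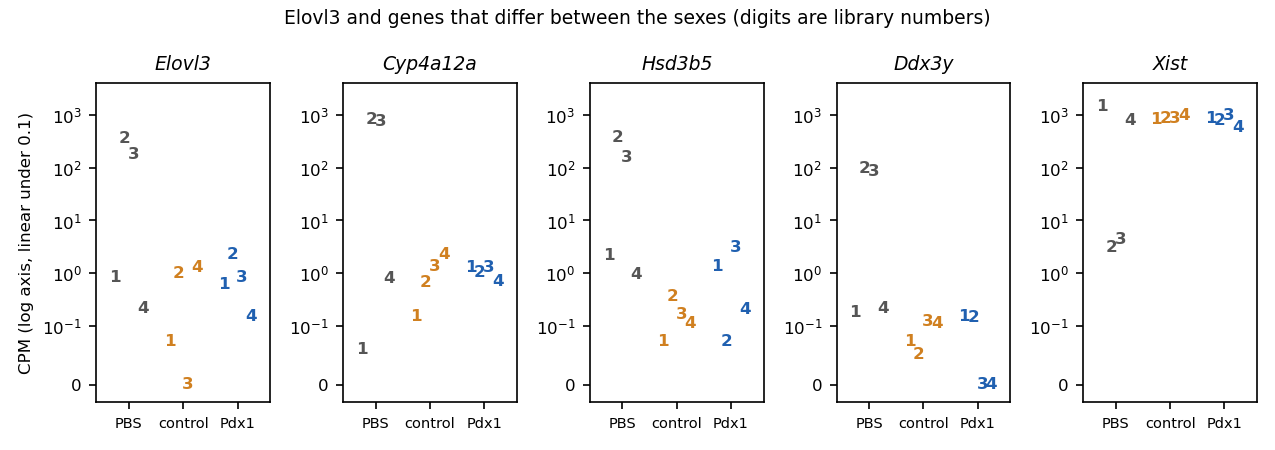
CPM (vertical axis, log and linear under 0.1) of Elovl3, of the male-biased Cyp4a12a and Hsd3b5, of the Y-linked Ddx3y and of Xist in each library, with the library number as the symbol. PBS libraries 2 and 3, at 360.4 and 177 CPM of Elovl3, are also the high libraries for Cyp4a12a, Hsd3b5 and Ddx3y and the low ones for Xist.

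For the activation of fatty acids to acyl-CoA, Acsl5 was at 249.7 to 664 CPM in PBS, 223 to 263 in control gRNA and 215 to 306 in Pdx1 gRNA libraries. It fell by 0.88 ± 0.25 after control gRNA (edgeR adjusted p = 0.0196), a call lost without PBS library 3 or 4 or control gRNA library 2 (-0.84 to -0.63, edgeR adjusted p of 0.0524 to 0.0593) and without PBS libraries 2 and 3 (-0.93, edgeR adjusted p = 0.0682). After Pdx1 gRNA it stood at -0.70 ± 0.25 (edgeR adjusted p = 0.0636), and at -0.90 without PBS library 1 (0.00429). Acsl3, a synthetase of lipid droplets, was at 20.2 to 61.3, 21.9 to 35.4 and 23.4 to 49.2 CPM, and its -0.52 ± 0.30 after control gRNA was not called (edgeR adjusted p = 0.204).

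Glycerolipid assembly gave 5 of 9 genes called in each virus group against PBS. Gpam (ENSMUSG00000024978.10, chromosome 19, 55069734 to 55099451), the mitochondrial glycerol-3-phosphate acyltransferase that starts glycerolipid synthesis, had 25.4, 287, 378 and 279 CPM in PBS, 30.9, 19.7, 32.9 and 37.35 CPM in control gRNA and 42.7, 49.0, 51.4 and 51.8 CPM in Pdx1 gRNA libraries. PBS library 1 lay under every virus library but control gRNA library 2, and the other 3 PBS libraries lay above all of them. Gpam fell by 3.0 ± 0.57 (edgeR adjusted p = 0.00253) and by 2.31 ± 0.55 (edgeR adjusted p = 0.0119).

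Agpat2, which adds the next fatty acid to make phosphatidic acid, was at 102 to 284 CPM in PBS, 77.2 to 104 in control gRNA and 79.55 to 134 in Pdx1 gRNA libraries. It fell by 1.02 ± 0.29 and by 0.85 ± 0.29 (edgeR adjusted p = 0.0176 and 0.0499). Its log2 fold changes were -0.39 and -0.22 without PBS libraries 2 and 3 (edgeR adjusted p = 0.273 and 0.567). The first call was lost without PBS library 2 or 3 alone (-0.88 and -0.78, edgeR adjusted p of 0.0523 to 0.0595), and the second without any 1 library but PBS libraries 1 and 4 (-0.98 to -0.61, up to 0.157). Agpat3, another enzyme of this step, was at 160 to 323, 191 to 244 and 197 to 287.5 CPM and was not called.

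Lpin1 and Lpin2, phosphatidate phosphatases that make diacylglycerol, each varied 1.31-fold over the PBS libraries. Lpin1 had 434.5, 472, 362 and 420.3 CPM in PBS, 93.6, 112, 64.5 and 136 CPM in control gRNA and 232, 161, 167 and 75.0 CPM in Pdx1 gRNA libraries. It fell by 2.06 ± 0.31 (edgeR adjusted p = 0.0007365) and by 1.41 ± 0.30 (edgeR adjusted p = 0.00698). All 8 virus libraries lay under all PBS libraries.

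Lpin2 (ENSMUSG00000024052.17, chromosome 17, 71182560 to 71249817) had 469.8, 440.5, 579 and 501 CPM in PBS, 209.5, 230.4, 193 and 229 CPM in control gRNA and 193, 255, 251.5 and 168 CPM in Pdx1 gRNA libraries. The virus groups overlapped each other and all lay under PBS. Lpin2 fell by 1.21 ± 0.17 (edgeR adjusted p = 0.000645) and by 1.20 ± 0.17 (edgeR adjusted p = 0.000995), and without PBS libraries 2 and 3 by 1.20 ± 0.20 and 1.18 ± 0.20 (edgeR adjusted p = 0.00765 and 0.0109). It had the smallest p of the 32 genes in both comparisons.

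Mogat1, a monoacylglycerol acyltransferase, was the least abundant member per length in PBS, at 1.61 ± 1.74 CPM per kb (SD, n = 4). It had 0.480, 3.23, 6.045 and 0.286 CPM in PBS, 0.6715, 1.36, 0.8275 and 1.33 CPM in control gRNA and 0.155, 0.0737, 0.302 and 0.559 CPM in Pdx1 gRNA libraries. Its log2 fold change was -1.23 ± 0.76 after control gRNA (edgeR adjusted p = 0.237) and -3.09 ± 0.88 after Pdx1 gRNA (edgeR adjusted p = 0.0251). Without PBS libraries 2 and 3 these became 1.39 ± 0.66 and -0.46 ± 0.70 (edgeR adjusted p = 0.174 and 0.690). The call after Pdx1 gRNA was also lost without PBS library 2 or 3 or Pdx1 gRNA library 1, 2 or 3 (-3.12 to -2.16, edgeR adjusted p of 0.0514 to 0.0947).

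The last step of triglyceride synthesis has 2 enzymes in the set. Dgat2, the diacylglycerol acyltransferase tied to newly made fatty acids, had 522, 815, 778 and 765 CPM in PBS, 382, 426, 340.2 and 458 CPM in control gRNA and 563, 495, 773 and 404 CPM in Pdx1 gRNA libraries. Control gRNA libraries lay under PBS, and Pdx1 gRNA libraries 1 and 3 lay in the PBS range. Dgat2 fell by 0.84 ± 0.22 after control gRNA (edgeR adjusted p = 0.0133, and 0.101 without PBS libraries 2 and 3). Dgat1, the enzyme that also handles preformed fatty acids, was at 23.25 to 34.05, 26.9 to 34.1 and 25.0 to 30.5 CPM, a range of at most 1.46-fold within a group, and was not called. The difference between Dgat1 and Dgat2 was not tested.

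Pnpla3, a lipid droplet protein with acyltransferase and lipase activity whose gene SREBP-1c is known to induce, had the widest range over PBS libraries after Elovl3, 111-fold. It had 63.5, 0.570, 9.43 and 41.0 CPM in PBS, 2.015, 3.44, 2.4 and 4.54 CPM in control gRNA and 42.7, 6.855, 12.8 and 1.22 CPM in Pdx1 gRNA libraries. PBS library 2, with the male pattern, was the lowest of all 12, and the groups overlapped. The log2 fold changes of -3.23 ± 1.17 and -0.85 ± 1.06 were not called (edgeR adjusted p = 0.0555 and 0.60). After control gRNA it passed at -4.11 ± 0.91 without PBS libraries 2 and 3 (edgeR adjusted p = 0.0195), and without PBS library 2, Pdx1 gRNA library 1 or Pdx1 gRNA library 4 alone (-3.63 to -3.22, edgeR adjusted p of 0.0205 to 0.0414).

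Members with changes under 0.5 on the log2 scale and no call against PBS were 4 after control gRNA (Me1, Agpat3, Dgat1 and Slc25a1, -0.50 to 0.03) and 6 after Pdx1 gRNA (the same 4 with Acsl3 and Dgat2, -0.37 to -0.02). In 12 of the 24 genes lower after control gRNA the call held under each of 24 other settings, among them every leave-out of 1 library. These were Srebf1, Acly, Acaca, Acacb, Fasn, Scd1, Elovl6, Gpam, Lpin1, Lpin2, Acss2 and Aacs. Leaving out 1 library moved the count of members called between 19 and 26 after control gRNA and between 10 and 21 after Pdx1 gRNA. The 21 came without PBS library 1, the lowest PBS library for 19 of the 32 genes.

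Beside the lower members, other enzymes of the same steps were called in both directions. Of 23 further enzymes of the pathway 19 were tested, and 7 rose and 2 fell after control gRNA, with a median of 0.57 (15.8% and 16.3% of all genes called lower and higher, as above). By smallest p these were Acsl1, which fell by 1.94 ± 0.29, and Agpat5, Elovl1 and Elovl7, which rose by 1.04 ± 0.17, 0.77 ± 0.13 and 4.24 ± 0.82 (edgeR adjusted p from 0.000729 to 0.00286 for the 4). Acsl1 is the main long-chain acyl-CoA synthetase of liver, at 848 to 1586 CPM in PBS and 247 to 426 in control gRNA libraries.

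Elovl7 is an elongase of saturated chains and had 0.205 to 1.44 CPM in PBS against 5.95 to 24.0 in control gRNA and 2.34 to 26.5 in Pdx1 gRNA libraries. The others called, chosen after their values were seen, were Gpat4 (lower by the log2 fold change of -1.45 ± 0.29) and Gpat3, Mogat2, Hacd1 and Acsl4 (1.57 ± 0.35, 3.87 ± 0.80, 0.75 ± 0.16 and 0.66 ± 0.21). Gpat3 is a glycerol-3-phosphate acyltransferase of the endoplasmic reticulum, and had 3.61 to 17.7 CPM in PBS against 24.3 to 39.6 in control gRNA and 26.7 to 40.8 in Pdx1 gRNA libraries. Gpam, a member of the same enzyme family, went from 25.4 to 378 CPM in PBS to 19.7 to 37.35 CPM in control gRNA libraries. Gpat4, another enzyme of this step, fell as Gpam did, and had 1650 to 3248 unscaled counts in PBS libraries against 38 to 296 of Gpat3. Mogat2 was near the floor in PBS libraries, with 0 to 5 counts, and had 31 to 133 in control gRNA libraries.

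After Pdx1 gRNA, where 11.7% of all genes were called higher and 10.4% lower against PBS, 5 of these enzymes rose and 2 fell. By smallest p they were Agpat5, Gpat3 and Elovl1, which rose by 1.0 ± 0.17, 1.79 ± 0.35 and 0.63 ± 0.13, and Acsl1, which fell by 1.36 ± 0.28 (edgeR adjusted p from 0.00219 to 0.00641 for the 4). Without PBS libraries 2 and 3, 5 rose and 2 fell after control gRNA, where 6.91% of all genes were higher and 7.05% lower. After Pdx1 gRNA 3 then rose and 0 fell, where 1277 of 16170 genes were called, 549 of them lower.

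Some markers of other cells were called after control gRNA, where 15.8% of all genes were called lower and 16.3% higher. The cholangiocyte markers Epcam and Sox9 rose after control gRNA by 2.12 ± 0.54 and 1.22 ± 0.39 (edgeR adjusted p = 0.0109 and 0.0318, 2 of 4 markers), and the 4 together were at 6.94 to 18.6, 14.4 to 44.4 and 8.23 to 18.4 CPM in PBS, control gRNA and Pdx1 gRNA libraries. Of macrophage markers 2 of 6 rose (Cd68 and Ctss) and of T cell markers 1 of 4 (Cd8a), at sums of 138 to 515 against 211 to 538 CPM and 2.93 to 4.94 against 5.04 to 8.4 CPM. Of endothelial markers 2 of 4 fell (Stab2 and Kdr). Stellate markers (0 of 4 called in edgeR, 1 at an unadjusted p under 0.05 and 1 by DESeq2) were at 191 to 305 CPM in PBS and 194 to 666 in control gRNA, and for blood markers 1 of 5 fell (Hbb-bt). None of these 5 rises was called in edgeR without PBS libraries 2 and 3, with log2 fold changes of 1.69 (Epcam), 0.89 (Sox9), 0.84 (Cd68), 0.84 (Ctss) and 1.67 (Cd8a) (edgeR adjusted p of 0.0926 to 0.232). Stab2 and Hbb-bt were still called and Kdr was not. After Pdx1 gRNA, 3 of 4 endothelial markers fell against PBS, with a median of -1.27 (10.4% of all genes lower, 11.7% higher). There 0 macrophage, T cell, stellate, cholangiocyte or blood markers were called in edgeR, while DESeq2 called 2 of 4 stellate and 1 of 5 blood markers lower. Without PBS libraries 2 and 3, 2 endothelial, 1 stellate and 1 blood marker fell, where 3.4% of all genes were lower. The part of all these markers in the values of the lipid genes and of the other enzymes was not tested.

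**Figure D5:**
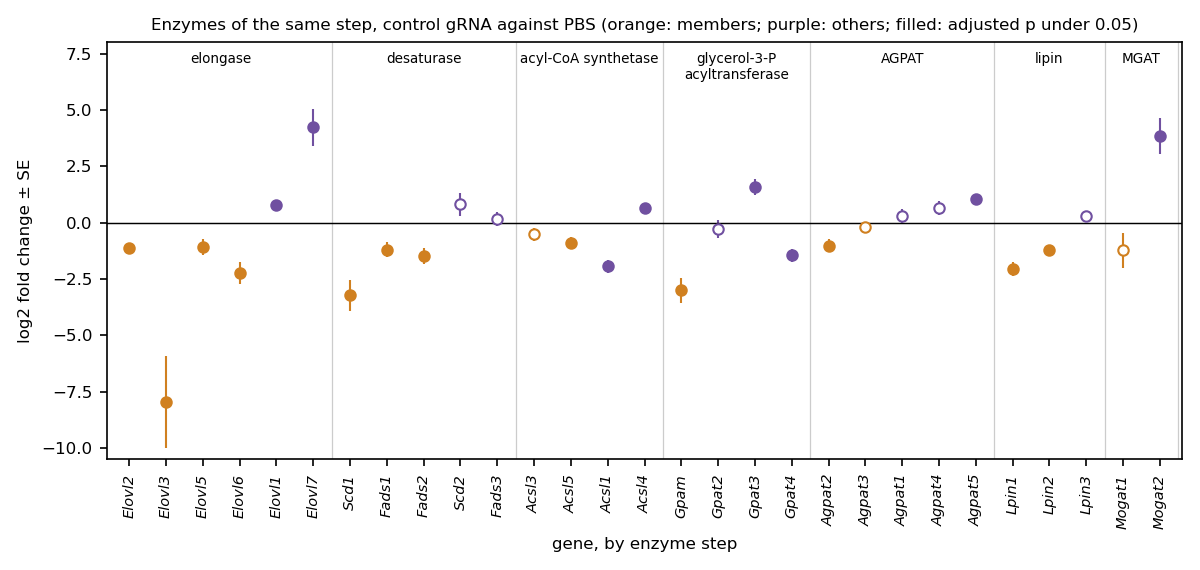
Log2 fold change after control gRNA against PBS (vertical axis, bars are SE) of the members (orange) and of further enzymes of the same steps (purple), with filled points for an adjusted p under 0.05. Elovl1, Elovl7, Acsl4, Gpat3, Agpat5 and Mogat2 lie above 0. Acsl1, Gpat4 and every filled orange point lie under 0.

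Upstream of the enzymes, 17 further regulators of lipid synthesis were listed. After control gRNA, where 15.8% of all genes were called lower and 16.3% higher, 5 of the 17 fell and 0 rose, with a median of -0.57. By smallest p these were Scap, the escort of SREBP from the endoplasmic reticulum, which fell by 1.14 ± 0.15 (edgeR adjusted p = 0.000419), Rxra, the partner of nuclear receptors such as LXR (-0.99 ± 0.24), Mbtps1, the site-1 protease that cleaves SREBP (-0.57 ± 0.14), and Insig1, which retains SCAP and is itself an SREBP target (-1.51 ± 0.47). Mid1ip1, a partner of Spot 14 named after its value was seen, was the last of the 5, at -1.0 ± 0.31. Scap had 147, 158, 144 and 198 CPM in PBS, 64.3, 85.5, 68.4 and 75.8 in control gRNA and 83.0, 96.3, 99.8 and 77.6 in Pdx1 gRNA libraries, so that no virus library reached PBS.

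After Pdx1 gRNA 3 of these regulators fell and 0 rose against PBS: Scap by 0.86 ± 0.15, Ppargc1b, a coactivator of SREBP-1, by 1.34 ± 0.36, and Mbtps1 by 0.42 ± 0.14 (edgeR adjusted p = 0.00239, 0.0196 and 0.0486). Of all genes, 10.4% were called lower and 11.7% higher in that comparison. Without PBS libraries 2 and 3, 2 regulators fell in each virus group. Of all genes, 7.05% were then lower after control gRNA and 3.4% after Pdx1 gRNA.

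For sugar entry and NADPH, 4 of the 8 listed genes reported here fell and 1 rose after control gRNA (15.8% of all genes lower, 16.3% higher). Pgd, an enzyme of the pentose phosphate pathway that makes NADPH, rose by 1.61 ± 0.33 (edgeR adjusted p = 0.00392). Idh1, Slc2a2 (the GLUT2 transporter) and Khk (ketohexokinase) fell by 0.89 ± 0.21, 0.98 ± 0.27 and 1.10 ± 0.37 (edgeR adjusted p = 0.00682, 0.0161 and 0.0356). After Pdx1 gRNA 2 fell and 1 rose against PBS (10.4% of all genes lower, 11.7% higher). Without PBS libraries 2 and 3 only Pgd was called, after control gRNA, where 6.91% of all genes were higher.

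Of 16 tested genes of lipid droplets and lipolysis, 3 fell and 1 rose after control gRNA, where 15.8% of all genes were called lower and 16.3% higher, so the share lower was near that of all genes. By smallest p they were Plin4 (-1.54 ± 0.32), Hilpda (1.47 ± 0.33), Fitm1 (-3.06 ± 0.86) and Cideb (-0.95 ± 0.29). After Pdx1 gRNA 2 fell and 1 rose against PBS, where 10.4% of all genes were called lower and 11.7% higher. Without PBS libraries 2 and 3, 0 were called after control gRNA (7.05% of all genes lower, 6.91% higher). After Pdx1 gRNA 1 then rose, where 1277 of 16170 genes were called in either direction. Fitm1, which aids droplet formation, had 50.5 and 56.25 CPM in PBS libraries 2 and 3 against at most 5.895 CPM in the others.

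Some genes of feeding state and time of day were also called after control gRNA, where 15.8% of all genes were lower and 16.3% higher. Of 7 fasting-induced liver genes reported here, 3 fell (G6pc, Pck1 and Cpt1a, by 2.12 ± 0.38, 1.55 ± 0.36 and 0.91 ± 0.26) and Pdk4 rose by 2.00 ± 0.57 after control gRNA. Of these only G6pc and Pck1 were called without PBS libraries 2 and 3. The 7 genes summed to 6182 to 6508 CPM in PBS, 1769 to 2829 in control gRNA and 1321 to 3667 in Pdx1 gRNA libraries. Pck1 was the largest part of this sum in every library. Of 14 clock genes 7 fell after control gRNA, by smallest p Cry2, Hlf, Nr1d2 and Tef (-1.04 to -0.57), and after Pdx1 gRNA 0 were called in edgeR against PBS, with 4 at an unadjusted p under 0.05 and 3 called by DESeq2. The count of clock genes lower after control gRNA was 5 without PBS libraries 2 and 3, where 7.05% of all genes were lower. The clock gene sum was 911 to 1397, 503.5 to 766 and 657 to 1185 CPM. The part of feeding state or hour of harvest in the lipid gene values was not tested.

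Setting the Pdx1 gRNA livers against the control gRNA livers addresses what the targeting gRNA adds to the virus. None of the 32 genes was called by edgeR's quasi-likelihood test, as for all genes tested (0%), and 2 of the 32 had an unadjusted p under 0.05, Srebf1 (0.0294) and Aacs (0.0160). DESeq2 called 14 of all genes (0.092%) and 0 of the 32, and limma-voom called 0 of the 32. Both Srebf1 and Aacs were higher after Pdx1 gRNA, where 2.23% of all genes were higher at this unadjusted p.

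The log2 fold changes were above 0 for 29 of the 32, against 49.1% of all genes, with a median of 0.46 against -0.01. The 6 hepatocyte markers were also all above 0, with a median of 0.38, while the medians of the macrophage (-0.67), T cell (-0.78), stellate (-1.0) and cholangiocyte markers (-0.70) lay under 0. None of these markers was called in edgeR or DESeq2, with 5 at an unadjusted p under 0.05 in edgeR (Ctss, Cd8a, Col1a1, Col3a1 and Dcn), and their part in the members' values was not tested. The 14 clock genes moved the same way, with a median of 0.51, 11 above 0 and 3 under 0. In edgeR 0 of them were called and 4 had an unadjusted p under 0.05, and DESeq2 called 1 higher. The part of time of day in the members' values was not tested. The members' log2 fold changes were at least 0.5 for 14, against 4.76% of all genes. By role these were Srebf1 (0.86 ± 0.35), Mlxipl (0.62 ± 0.52) and Thrsp (1.30 ± 0.71) among regulators, and Pklr (0.97 ± 0.49), Acly (0.60 ± 0.37) and Aacs (1.30 ± 0.47) in supply. In chain synthesis they were Fasn (1.11 ± 0.58), Scd1 (0.60 ± 0.64), Fads2 (0.54 ± 0.35), Elovl6 (0.88 ± 0.47) and Elovl3 (0.77 ± 2.13), and in assembly Gpam (0.69 ± 0.53), Lpin1 (0.64 ± 0.30) and Pnpla3 (2.37 ± 1.14). The edgeR adjusted p values of these 14 ran from 0.809 to 0.961.

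Mogat1 was at -1.86 ± 0.87 (edgeR adjusted p = 0.809), and the other 17 lay between -0.06 and 0.48. Gpam was the sole member whose Pdx1 gRNA libraries all lay above the control gRNA libraries (42.7 to 51.8 against 19.7 to 37.35 CPM, as 3.48% of all genes did). Mogat1 was the sole one whose Pdx1 gRNA libraries all lay under, on 1 to 11 counts against 18 to 26. The share of all genes that lay wholly under was not counted. The spread within the virus groups was wide. Pdx1 gRNA library 4 was the lowest of its group for 28 of the 32 genes and had the most Pdx1 counts, 256. Control gRNA library 4 was the highest of its group for 23 and control gRNA library 1 the lowest for 19. Pdx1 gRNA library 4 had the lowest hepatocyte marker sum of its group, 48690 CPM against 77470 to 99120 in the other 3. Most of that sum was Alb, at 36070 CPM, and Cps1, Hnf4a and Tat were not at their lowest of the group there. The part of these markers in the members' values was not tested.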

How the data were processed

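Liver RNA was measured in 12 libraries, 4 for each of PBS, control gRNA and Pdx1 gRNA. The values are whole-number fragment counts per gene, not normalized, deposited by the authors in 1 file per library. Per the file headers they were made with featureCounts 1.4.6-p4 on paired reads without regard to strand, requiring both ends to map and summing the exons of each GENCODE M13 gene. The submitters' processing notes name STAR 2.4.1a, Trimmomatic 0.32, R 3.5.1 with DESeq2 1.22.0, and the builds GRCm38 and mm10. Reads of a gene and of an antisense partner cannot be told apart in such counts.

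Symbols were matched by gene ID (50376 of 50600). Genes passed edgeR's filterByExpr (minimum count 10), were scaled by TMM and fitted over all 12 libraries in 1 model with edgeR 4.0.16 in R 4.3.3 (quasi-likelihood, robust, two-sided), with Benjamini-Hochberg adjustment over all genes tested. Called genes, for which alone rose and fell are written, had an adjusted p under 0.05. The script was tested on simulated data. CPM uses TMM-scaled library sizes, and ± after a log2 fold change is SE. Alternatives were other scaling factors, other filters, DESeq2 1.42.0, limma-voom (limma 3.58.1), glmTreat at a fold change of 1.5, a replicate block, fits of 8 libraries, and leaving out each library or PBS libraries 2 and 3.

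The 32 genes, the other lists, the tests and the alternatives were chosen with earlier results of these data known. Fold changes are given for members called and for those not called with a log2 fold change of at least 0.5 in size, and values per library for 13 listed members and up to 5 further called members per comparison by smallest p. From other lists the 4 called genes with the smallest p are named. Of the lists of sugar entry and of fasting genes, 1 gene each is not reported here and is left out of counts and sums. Same-numbered libraries were not treated as pairs. No set test was run.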

Additional observations from a re-analysis of the deposited data

Results flagged for a closer look

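In each of the 96 groups of 4 libraries (32 genes in 3 groups), the highest and the lowest value were compared with the nearest of the others by Dixon's criterion. Of these, 4 groups had a value far from the rest, where chance marks about 1 in 20 groups. Srebf1 in PBS library 3, at 940.3 CPM, was the highest of its group. Dgat2 in PBS library 1, at 521.8 CPM, was the lowest of its group. Agpat2 in control gRNA library 1, at 77.22 CPM, was the lowest of its group, and Aacs in control gRNA library 4, at 64.29 CPM, was the highest.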

How the results depend on the processing

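The members called lower after control gRNA (24) were 14 when a fold change above 1.5 was tested (glmTreat), and those called lower after Pdx1 gRNA against PBS (14) were then 1. The latter count was 8 with no filter on low counts, 9 in a fit of only the 8 libraries compared and 6 without PBS libraries 2 and 3. Leaving out 1 library at a time gave 19 to 26 and 10 to 21. Calls over all genes went from 4887 to 1358 (glmTreat) and 2258 (without PBS libraries 2 and 3) after control gRNA. After Pdx1 gRNA against PBS they went from 3370 to 595, 2017 (only 8 libraries), 1277, 5421 (without PBS library 1) and 2132 (without Pdx1 gRNA library 4). Against control gRNA they went from 0 to 14 with DESeq2, and to 1 in the fit of 8 libraries, without PBS library 1 and without Pdx1 gRNA library 4.

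Without PBS libraries 2 and 3 the log2 fold change turned to 0.04 for Elovl3, 0.07 for Me1 and 1.39 for Mogat1 after control gRNA and to 0.80 for Elovl3 after Pdx1 gRNA. Against control gRNA Elovl3 turned to -0.06 without Pdx1 gRNA library 2 (-0.06 to 1.52 over all libraries left out in turn). The cause was not tested. With the replicate number as a block (replicate block), 19 and 10 members were called lower. The labels do not say that a number marks a shared animal or batch, and 3 of 12 same-numbered pairs of libraries had deviations correlated over 0.1 (-0.448 to 0.224), with 2 of 12 libraries closest to their own number. Depth limits Elovl3, with 0 to 31 counts in 10 libraries, and Mogat1, with 1 to 59 in all.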
